A study of Mus musculus with 8 samples.

Results

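The 9 genes described here encode the pore-forming and accessory subunits of the voltage-gated calcium channels of the heart and the pacemaker channels. They were taken by name from a fixed list and make up 9 of the 39056 genes counted. The list holds the L-type pore subunits Cacna1c and Cacna1d, the T-type pore subunits Cacna1g and Cacna1h, the accessory subunits Cacnb2, Cacna2d1 and Cacna2d2, and the pacemaker channels Hcn2 and Hcn4. Messenger RNA was measured in hearts of 4 male HVCN1 null mice (hearts 1 to 4) and 4 male wild-type (WT) mice (hearts 5 to 8), all 3 months old, with 1 library per heart. HVCN1 null mice carry a deletion of the gene for the voltage-gated proton channel HVCN1, and the mice were on the C57BL/6 background. The study asked how the loss of HVCN1 changes the heart's transcriptome, cardiac ion channels included.

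Voltage-gated calcium channels open when the membrane depolarizes. In cardiac myocytes the L-type channel carries the calcium current that triggers release from the sarcoplasmic reticulum, and the T-type channels open at more negative voltages and are known mainly from the developing heart, the atria and the sinoatrial and conduction tissue. The pore subunit is assembled with a β subunit, which brings the channel to the membrane and shapes its gating, and with an α2δ subunit, which sits largely outside the cell. The HCN channels open when the membrane hyperpolarizes and pass the inward "funny" current that contributes to the spontaneous depolarization of pacemaker cells. Hcn4 is the main isoform of the sinoatrial node, and Hcn2 is the isoform usually found in working myocardium.

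The pore sequences show how the members divide. Each calcium channel pore is lined by 4 repeats of the same protein, and a single acidic residue from each repeat forms the selectivity filter. The stretches below are coding sequence, in exons, read 5′ to 3′ from mouse transcripts of the GENCODE annotation, 39 bases each, with the codon of the filter residue in capitals. They are shown for repeats III and IV because those repeats separate the L-type from the T-type genes.
Cacna1c, repeat III: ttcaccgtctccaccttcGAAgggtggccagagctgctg
Cacna1d, repeat III: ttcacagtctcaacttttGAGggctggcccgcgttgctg
Cacna1g, repeat III: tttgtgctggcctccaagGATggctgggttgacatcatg
Cacna1h, repeat III: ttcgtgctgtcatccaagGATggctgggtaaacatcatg
Cacna1c, repeat IV: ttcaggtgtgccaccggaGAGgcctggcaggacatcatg
Cacna1d, repeat IV: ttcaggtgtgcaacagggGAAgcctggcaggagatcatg
Cacna1g, repeat IV: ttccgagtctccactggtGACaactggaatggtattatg
Cacna1h, repeat IV: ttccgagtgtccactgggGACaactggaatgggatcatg
In Cacna1c and Cacna1d the marked codons encode glutamate in all 4 repeats, while in Cacna1g and Cacna1h repeats III and IV carry aspartate codons. In repeat IV the L-type pair was identical at 34 of 39 bases and the T-type pair at 35 of 39, whereas an L-type and a T-type gene shared between 22 and 25 of 39.

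Hcn2 and Hcn4 carry the glycine-tyrosine-glycine filter known from potassium channels. It is given in capitals within 45 bases of coding sequence, read in the same way, because these 2 genes are set against each other in the results.
Hcn2: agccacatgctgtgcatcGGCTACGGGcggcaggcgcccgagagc
Hcn4: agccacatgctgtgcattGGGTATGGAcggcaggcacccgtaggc
The 2 stretches were identical at 37 of 45 bases. Although the pores are alike, no run of 50 bases, the length of 1 read, was shared between the transcripts of any 2 members, and none of the runs of Cacna1c, Hcn2 or Hcn4 occurred in another gene. In Cacna1d, 4.18% of the runs also lay in Chdh, a gene on the opposite strand that overlaps its exons. In Cacnb2, 5.90% of the runs lay in other genes, mostly the antisense genes and pseudogenes Gm10849, Gm13269 and Gm10848, and in Cacna1h 1.12% did, mostly Tpsg1 on the opposite strand. The strand setting of the counting is not given in the sources used here, so counts in these overlaps are uncertain.

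Hvcn1, the deleted gene, was counted 16 times in all HVCN1 null hearts and 318 times in all WT hearts, and its mean was 0.116 and 2.25 CPM (counts per 1000000 counts). Total counts ran from 25851255 to 38874640 per heart, and a member gene held between 53 and 13740 counts in a heart. The hearts differed in their content of atrial transcripts. The summed CPM of 8 atrial marker genes was 4784 in heart 2, 3827 in heart 3, 3405 in heart 5 and 8812 in heart 7, against 385 in heart 1, 410 in heart 4, 192 in heart 6 and 179 in heart 8, so that 2 hearts of each genotype lay on either side of the gap. Bmp10, a growth factor of the atria, was at 418 CPM in heart 2 and 573 in heart 7 and at no more than 3.08 in the other hearts. In whole tissue, fewer cells of a type and less RNA per cell cannot be told apart. The cardiomyocyte markers were high in every heart, with a summed CPM of 52737 to 65263, and lung epithelium markers summed to at most 0.0847.

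None of the 9 genes differed between the genotypes at an adjusted p under 0.05. Hcn2 was the only member whose 2 groups did not overlap, with all 4 HVCN1 null hearts above all 4 WT hearts. Counts were tested with edgeR's quasi-likelihood test, adjusted over the 14796 genes that passed the filter on low counts, and all 9 members passed it. Over all genes tested, 1.14% were called (169), 0.743% higher (110) and 0.399% lower (59) in HVCN1 null hearts. Groups without overlap were found for 7.06% of all genes, 3.60% with HVCN1 null higher and 3.45% with it lower, so that 1 of 9 members is near this background. An unadjusted p under 0.05 was reached by 1 of the 9 members and by 11.0% of all genes. The log2 fold change, HVCN1 null over WT, was positive for 4 members and negative for 5, with a median of -0.03 beside -0.01 over all genes.

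**Figure D1:**
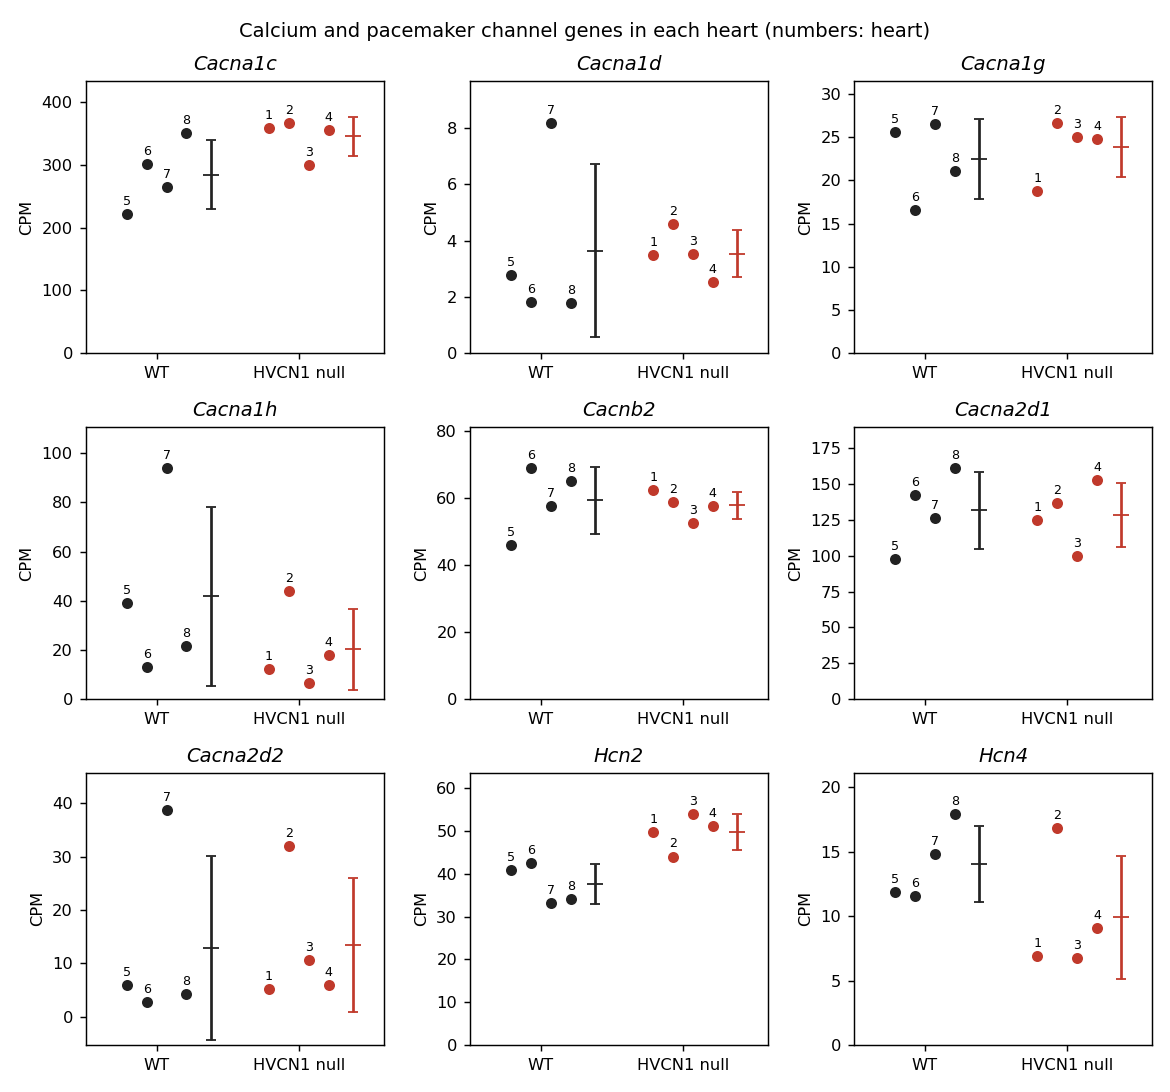
Expression of the 9 channel genes in each heart, as CPM (library sizes TMM-scaled). Points are hearts, numbered 1 to 4 (HVCN1 null, red) and 5 to 8 (WT, black), and the bar beside each group is the mean ± SD (n = 4). The 2 groups are separate for Hcn2 and overlap for the other members. Hearts 2 and 7 are the highest of their groups for Cacna1d, Cacna1h and Cacna2d2, and by a small margin for Cacna1g.

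Cacna1c (ENSMUSG00000051331, chromosome 6, 118587240 to 119196418 in GRCm38) encodes the pore of the L-type channel of ventricular myocytes. HVCN1 null hearts 1 to 4 had 358, 367, 299 and 356 CPM. WT hearts 5 to 8 had 221, 301, 265 and 351 CPM. The 3 highest values belonged to HVCN1 null hearts 1, 2 and 4, but heart 3 lay below WT heart 6, and WT heart 8 lay only just below heart 4. The means were 345 ± 30.9 and 285 ± 55.1 CPM (SD, n = 4 each), which gave a log2 fold change of 0.28 (SE 0.14, 95% interval -0.04 to 0.60, edgeR adjusted p = 0.540). The interval reaches from slightly lower to 1.51-fold higher in HVCN1 null hearts. Without the atrial-rich hearts 2, 3, 5 and 7 the log2 fold change was 0.15, and among those 4 hearts it was 0.45.

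Cacna1d (ENSMUSG00000015968, chromosome 14, 30039939 to 30491455) encodes the other L-type pore, which opens at more negative voltages and is known from the atria and the sinoatrial node. HVCN1 null hearts 1 to 4 had 3.48, 4.60, 3.53 and 2.54 CPM, and WT hearts 5 to 8 had 2.78, 1.82, 8.19 and 1.79. WT heart 7 stood far above the rest, and the other 3 WT hearts lay in the lower part of the range. The means were 3.54 ± 0.841 and 3.65 ± 3.07 CPM, with a log2 fold change of -0.05 (SE 0.45, 95% interval -1.06 to 0.96, edgeR adjusted p = 0.993). Without heart 7 the log2 fold change was 0.73, with the direction turned, and it was not called.

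The T-type pore subunits had unlike spreads over the hearts. Cacna1g (ENSMUSG00000020866, chromosome 11, 94408391 to 94474198) was even over the hearts, with 18.8, 26.7, 25.0 and 24.8 CPM for HVCN1 null hearts 1 to 4, and WT hearts 5 to 8 at 25.6, 16.5, 26.6 and 21.1. The groups covered almost the same range. Their means were 23.8 ± 3.46 and 22.4 ± 4.60 CPM, with a log2 fold change of 0.08 (SE 0.16, 95% interval -0.27 to 0.43, edgeR adjusted p = 0.929).

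Cacna1h (ENSMUSG00000024112, chromosome 17, 25374285 to 25433783) had 12.4, 43.9, 6.46 and 17.9 CPM in HVCN1 null hearts 1 to 4. WT hearts 5 to 8 had 38.9, 12.9, 93.8 and 21.7 CPM. The highest heart exceeded the lowest 14.5-fold, and each group held both high and low hearts. The means were 20.2 ± 16.5 and 41.8 ± 36.3 CPM, and with all 8 hearts the log2 fold change was the widest of the 9 at -1.05 (SE 0.65, 95% interval -2.48 to 0.39, edgeR adjusted p = 0.658). The 3 highest values fell in hearts 7, 2 and 5, which were among the 4 hearts rich in atrial transcripts, yet the lowest value was that of heart 3, which was atrial-rich as well. With the atrial score of each heart as a covariate the log2 fold change was -1.14 (SE 0.39, edgeR adjusted p = 0.230). Without WT heart 7 the log2 fold change from the remaining hearts was -0.27, smaller than those of Cacna2d2 (1.65) and Cacna1d (0.73) without that heart, and without HVCN1 null heart 2 it was -1.76. It was -1.40 among hearts 2, 3, 5 and 7, and -0.17 among hearts 1, 4, 6 and 8. The part of the atrial content in the difference was not tested.

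The β and α2δ subunits of the ventricular L-type channel had means that differed by less than the spread between hearts. Cacnb2 (ENSMUSG00000057914, chromosome 2, 14603088 to 14987908), which encodes the main cardiac β subunit, had 62.3, 58.7, 52.6 and 57.5 CPM in HVCN1 null hearts 1 to 4. WT hearts 5 to 8 had 46.0, 68.8, 57.4 and 64.8 CPM, a range that enclosed all 4 HVCN1 null values. The means of 57.8 ± 4.03 and 59.2 ± 10.0 CPM gave a log2 fold change of -0.04 (SE 0.12, 95% interval -0.31 to 0.24, edgeR adjusted p = 0.970), and the interval leaves room for a change of up to 1.24-fold.

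Cacna2d1 (ENSMUSG00000040118, chromosome 5, 15934691 to 16374511), the α2δ gene of the ventricle, had 125, 137, 99.7 and 153 CPM in HVCN1 null hearts 1 to 4. It had 97.3, 143, 126 and 161 CPM in WT hearts 5 to 8. Both groups had their lowest value near 100 CPM in an atrial-rich heart, heart 3 and heart 5. The means were 129 ± 22.4 and 132 ± 26.9 CPM, with a log2 fold change of -0.03 (SE 0.17, 95% interval -0.41 to 0.34, edgeR adjusted p = 0.980).

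Cacna2d2 (ENSMUSG00000010066, chromosome 9, 107399612 to 107529343), a related α2δ gene, was high in a single heart of each genotype. HVCN1 null hearts 1 to 4 had 5.25, 32.0, 10.7 and 6.04 CPM, and WT hearts 5 to 8 had 5.92, 2.75, 38.7 and 4.18. Hearts 2 and 7, the high ones, were the 2 hearts that were high for Bmp10, and they also had the highest sums of 4 adipocyte markers, 10.8 and 26.9 CPM against 0.154 to 4.37 in the others. Hearts 3 and 5, with many atrial transcripts but hardly any Bmp10, had 10.7 and 5.92 CPM. The means were 13.5 ± 12.6 and 12.9 ± 17.3 CPM, with a log2 fold change of 0.06 (SE 0.83, 95% interval -1.78 to 1.90, edgeR adjusted p = 0.995). This interval is the widest of the 9 and would hold a change of 3.73-fold. With hearts 2 and 7 both left out the log2 fold change was 0.77 (SE 0.33, edgeR adjusted p = 0.492). Without heart 7 alone it was 1.65, and without heart 2 alone it was -0.83. The part of the atrial and adipocyte transcripts in these values was not tested.

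**Figure D2:**
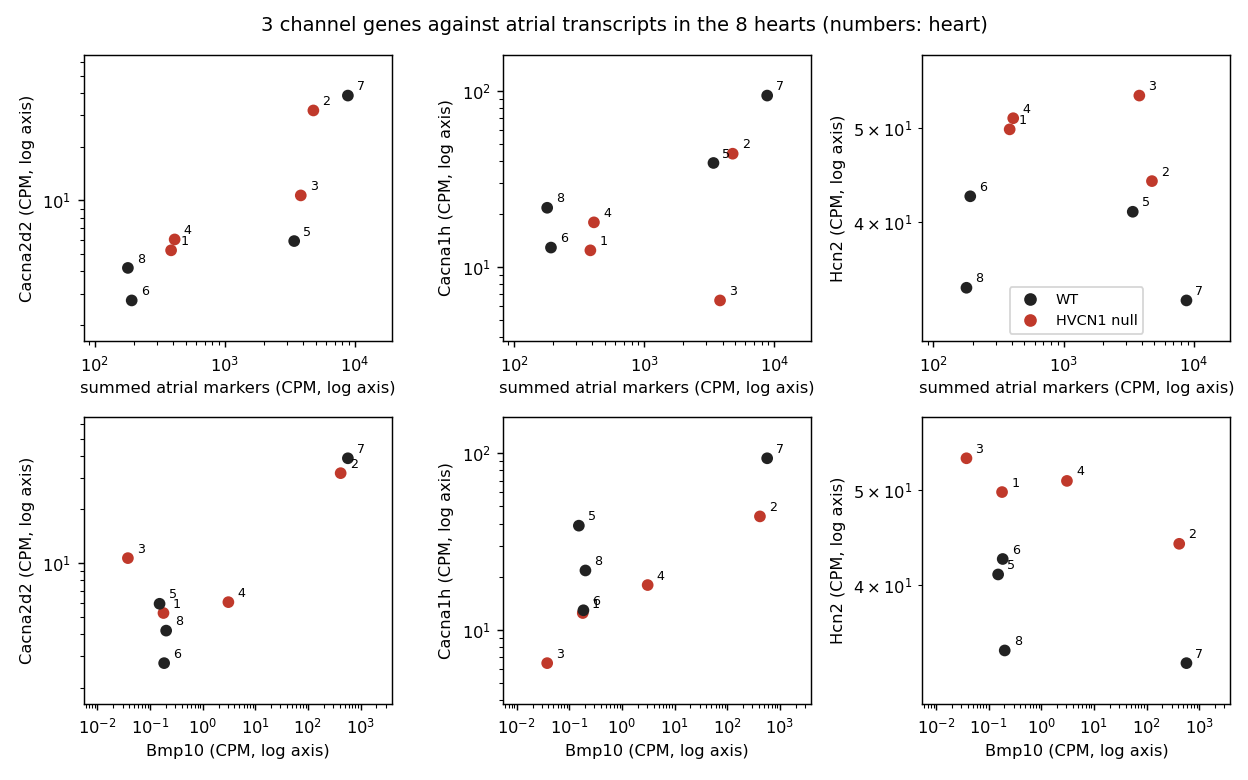
Cacna2d2, Cacna1h and Hcn2 (CPM, log axes) in the 8 hearts against the summed CPM of 8 atrial markers (upper row) and against Bmp10 (lower row), with hearts numbered and coloured by genotype. Hearts 2 and 7 are high for Bmp10 and for Cacna2d2, and heart 3 is low for Cacna1h despite 3827 CPM of atrial markers. For Hcn2 all HVCN1 null hearts lie above all WT hearts, which fixes that order on either side of the atrial gap.

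Hcn2 (ENSMUSG00000020331, chromosome 10, 79716634 to 79736108) was higher in each HVCN1 null heart than in any WT heart. HVCN1 null hearts 1 to 4 had 49.8, 44.1, 54.0 and 51.1 CPM, and WT hearts 5 to 8 had 41.0, 42.5, 33.2 and 34.2. The gap between the groups was narrow, from 42.5 in WT heart 6 to 44.1 in HVCN1 null heart 2. The means were 49.7 ± 4.17 and 37.7 ± 4.70 CPM, a 1.32-fold difference with a 95% interval of 1.12 to 1.55. On the log2 scale this was 0.40 (SE 0.11, 95% interval 0.16 to 0.63), and after adjustment over all genes it did not pass (edgeR adjusted p = 0.137). DESeq2 gave a log2 fold change of 0.41 and called it (adjusted p = 0.0188). Over the 19 alternatives the adjusted p ran from that value to 0.942, and the log2 fold change stayed between 0.35 and 0.46.

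With the atrial score of each heart as a covariate, the Hcn2 log2 fold change was 0.42 (SE 0.11, edgeR adjusted p = 0.104). It was 0.41 (SE 0.14) among hearts 1, 4, 6 and 8. Among hearts 2, 3, 5 and 7 it was 0.40 (SE 0.17), with 2 hearts against 2 in each set. With hearts 2 and 7 left out together it was 0.40. Since the groups of all 8 hearts are separate, the direction is fixed in every subset. These sets were chosen after seeing the data, and the part of the atrial content in the Hcn2 difference was not tested. Some marker genes also differed in level between the genotypes. Among 5 smooth muscle markers 1 was called, Acta2, the smooth muscle actin gene (261 ± 101 against 105 ± 18.9 CPM, log2 fold change 1.32, edgeR adjusted p = 0.0467). The 5 together summed to 301 to 578 CPM in HVCN1 null and 203 to 275 in WT hearts, a separation that came from Acta2. Without it the other 4 summed to 100.4 to 222 and 124 to 155 CPM, each overlapped between the groups, and their log2 fold changes were 0.08 to 0.30. Of 8 cardiomyocyte markers, Actc1, the cardiac actin gene, had groups without overlap (6353 ± 279 against 9026 ± 1259 CPM, log2 fold change -0.51, edgeR adjusted p = 0.105), and the median over the 8 was -0.01. The 4 Schwann cell markers summed to 12.5 to 16.2 CPM in HVCN1 null and 6.14 to 11.0 in WT hearts, with a median log2 fold change of 0.77 and none called. The part of these markers in the Hcn2 values was not tested.

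Hcn4 (ENSMUSG00000032338, chromosome 9, 58823412 to 58863175) had the lower mean in HVCN1 null hearts without passing the test. HVCN1 null hearts 1 to 4 had 6.90, 16.8, 6.76 and 9.09 CPM, and WT hearts 5 to 8 had 11.9, 11.6, 14.8 and 17.9. Hearts 1, 3 and 4 were below every WT heart, while HVCN1 null heart 2 was above 3 of the 4 WT hearts. The means were 9.90 ± 4.75 and 14.0 ± 2.97 CPM, with a log2 fold change of -0.50 (SE 0.28, 95% interval -1.12 to 0.12, edgeR adjusted p = 0.594). Leaving out heart 2 moved it to -0.89, with an edgeR adjusted p of 0.0667, and leaving out hearts 2 and 7 together moved it to -0.85. Among hearts 1, 4, 6 and 8 it was -0.86, and among the atrial-rich hearts -0.18. The sinoatrial node markers Shox2, Tbx3 and Tbx18 were at 0.236 to 1.80, 16.9 to 30.4 and 2.35 to 5.63 CPM. Isl1, also a listed node marker, had a total count of 1, in WT heart 7 (0.0264 CPM). Of the other listed node markers, Smoc2 was at 63.5 to 82.2 CPM and Vsnl1 at no more than 0.608. Cpne5 (12.9 and 8.43 CPM), Rgs6 (30.2 and 30.7) and Shox2 (1.58 and 1.80) were highest in hearts 2 and 7, and the other node markers were not. None of the 6 node markers tested was called, and the part of node tissue in the Hcn4 values was not tested.

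**Figure D3:**
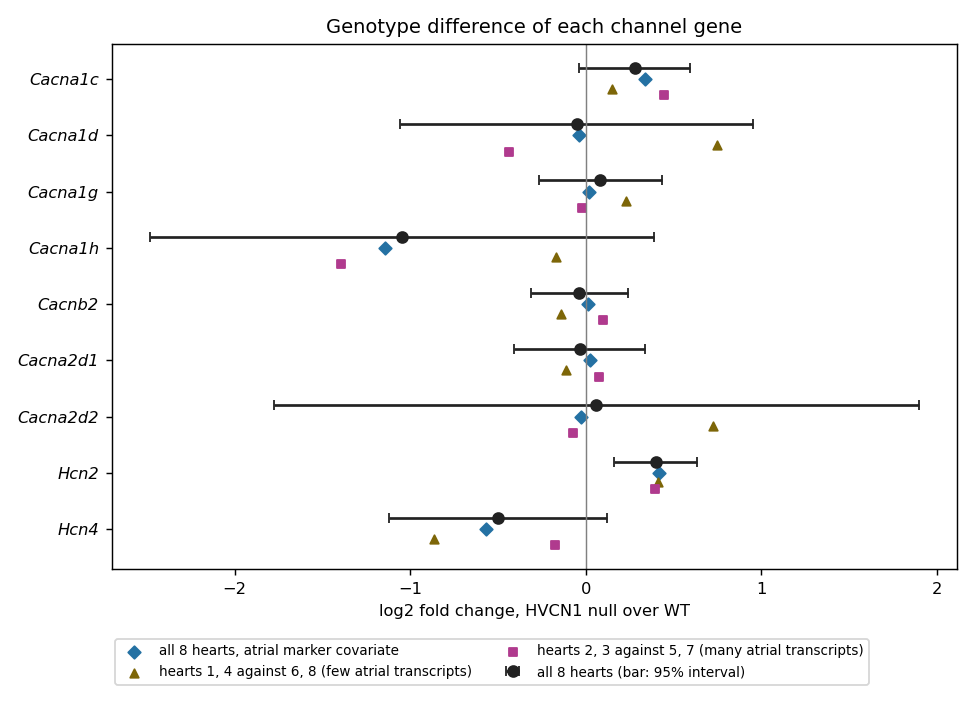
Log2 fold change, HVCN1 null over WT, of the 9 genes. Circles with bars are the values and 95% intervals from all 8 hearts, diamonds the values with the atrial score as a covariate, triangles the 2 against 2 comparison of hearts with few atrial transcripts and squares that of hearts with many. The interval of Hcn2 (0.16 to 0.63) lies above 0, and the intervals of the other members include 0. The 4 values of a gene come from the same 8 hearts and are not independent.

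Within the sets of 2 against 2 hearts groups without overlap were common. Among hearts 1, 4, 6 and 8 it held for 6 of 9 members, with Cacna1c, Cacna1d, Cacna2d2 and Hcn2 higher and Cacnb2 and Hcn4 lower in HVCN1 null hearts, beside 39.8% of all genes. Among hearts 2, 3, 5 and 7 it held for 2 of 9, Cacna1c and Hcn2, both higher in HVCN1 null hearts, beside 31.5%. With hearts 2 and 7 left out it held for Hcn2, higher, and Hcn4, lower, beside 15.0%. Hcn2 is separate over all hearts, so it is separate in each set. Heart 2 is the only HVCN1 null heart within the WT range for Hcn4, so any set without heart 2 is separate for that gene. No member was called in any of these fits.

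Relative levels were compared per kilobase of merged exons. In WT hearts Cacna1c was the highest at 13.4 CPM per kb (range 10.4 to 16.6), followed by Hcn2 at 11.8 (10.4 to 13.3) and Cacna2d1 at 10.6 (7.84 to 13.0), whose ranges overlapped. The range of Cacna2d1 lay above that of Cacnb2, which had a mean of 4.48. Cacna1h at 4.28 spread from 1.32 to 9.61 and reached into the range of Cacna2d1. Hcn4 at 2.30, Cacna1g at 2.21 and Cacna2d2 at 1.62 CPM per kb followed, and from Cacnb2 on each range overlapped the next. Cacna1d was the lowest at 0.289 CPM per kb, and its range overlapped that of Cacna2d2. In HVCN1 null hearts Cacna1c (16.3) and Hcn2 (15.6) overlapped each other, and both lay above Cacna2d1 (10.4), which in turn lay above Cacnb2 (4.37). Cacna1g (2.35), Cacna1h (2.07), Cacna2d2 (1.70) and Hcn4 (1.62) followed without a gap among them, and Cacna1d (0.280) lay below them all. The highest heart of Cacna1h (4.50) and that of Cacna2d2 (4.02) reached into the range of Cacnb2 (3.97 to 4.71). Hcn4 thus stood in place 6 in WT and place 8 in HVCN1 null hearts, among neighbours that did not differ beyond their spread. The β subunit stood below the pore and α2δ subunits of the L-type channel on this scale, a distance that shrank when the longest transcript served as the length (11.8 for Cacnb2, 21.6 for Cacna1c and 17.7 for Cacna2d1 in WT hearts).

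**Figure D4:**
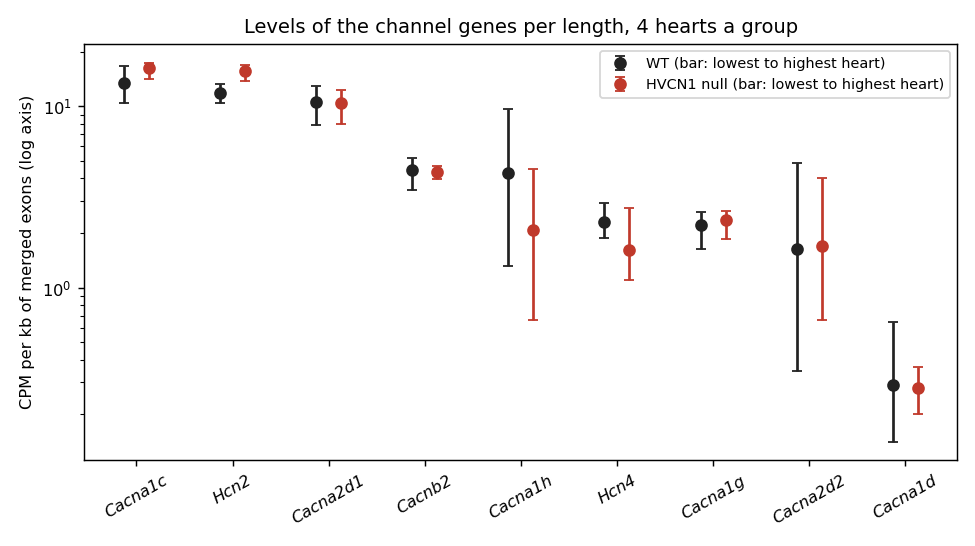
Mean level of each gene in CPM per kb of merged exons (log axis), in WT (black) and HVCN1 null hearts (red), with bars from the lowest to the highest of the 4 hearts. Cacna1c, Hcn2 and Cacna2d1 have the 3 highest means in both genotypes, Cacna1d has the lowest, and the bars of Cacna1h and Cacna2d2 are the longest.

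Ratios between related members were taken heart by heart on the same scale and are given as a description. Hcn4 per Hcn2 was 0.0724, 0.200, 0.0654 and 0.0929 for HVCN1 null hearts 1 to 4, and WT hearts 5 to 8 gave 0.152, 0.142, 0.233 and 0.273. The ratio was below every WT heart in HVCN1 null hearts 1, 3 and 4, and heart 2 lay inside the WT range. For hearts 1, 3 and 4 this order was fixed by the values of the genes themselves. Their Hcn4 lay below, and their Hcn2 above, that of every WT heart. The mean log2 ratio was -3.37 ± 0.73 and -2.38 ± 0.46, a difference of -0.99 that ran from -1.34 to -0.80 with a heart left out. That difference combines the lower Hcn4 and the higher Hcn2 means, neither of them called, and is not a further result. Cacna1d stood at 0.00855 to 0.0519 of Cacna1c, and the mean log2 ratios of the genotypes differed by -0.06, or by -0.40 to 0.46 with a heart left out, the latter without heart 7. Cacna1g per Cacna1h ran from 0.273 in WT heart 7 to 3.73 in HVCN1 null heart 3, with a difference of 1.10 between mean log2 ratios whose SDs were 1.09 and 0.95. That difference was 0.64 without heart 3, 0.67 without heart 7 and at most 1.53 otherwise. Cacna2d2 per Cacna2d1 ran from 0.0301 in WT heart 6 to 0.480 in WT heart 7, and the mean log2 ratios differed by 0.54 with SDs of 1.22 and 1.79. That difference was 1.36 without heart 7, 0.023 without heart 2 and 0.031 without heart 6.

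The other genes of these channels gave no called difference either. Of 47 genes in 4 lists, 36 passed the filter, 18 with positive and 18 with negative log2 fold changes, and 3 of the 36 (8.33%) had groups without overlap, beside 7.06% over all genes. An unadjusted p under 0.05 was reached by 7 of the 36 (19.4%), 3 higher and 4 lower, beside 11.0% over all genes. Among the other pore subunits 5 of 6 were tested (median log2 fold change 0.01). The most abundant in CPM were Cacna1s, the pore of the skeletal muscle L-type channel, at 16.7 ± 3.46 and 14.5 ± 5.61 CPM, and Cacna1a, the P/Q-type pore of neurons, at 7.12 ± 1.24 and 7.09 ± 0.611, each given for HVCN1 null and then WT hearts. Cacna1i, the remaining T-type pore, was at 0.456 ± 0.273 and 0.516 ± 0.203 CPM.

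Of the other accessory subunits 6 of 13 were tested (median -0.07). Cacnb1, the β subunit of skeletal muscle, was at 9.03 ± 1.65 and 9.34 ± 0.465 CPM, Cacng7 at 8.91 ± 1.55 and 8.10 ± 1.55, and Cacnb3 at 5.78 ± 0.968 and 6.16 ± 1.29. Cacng6, a γ subunit gene picked here after its values were seen, had 0.840, 2.06, 1.22 and 1.27 CPM for HVCN1 null hearts 1 to 4, while WT hearts 5 to 8 had 2.93, 3.58, 3.09 and 2.83. Its groups did not overlap, and its log2 fold change of -1.20 (SE 0.26) narrowly missed the threshold (edgeR adjusted p = 0.0605).

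Of the other HCN channels and their partners 4 of 6 were tested (median -0.06). Mrvi1, which like Lrmp encodes a membrane protein known to modulate HCN channels, was at 26.6 ± 7.80 and 21.2 ± 7.04 CPM, and Lrmp was at 1.92 ± 0.384 and 2.62 ± 0.400.

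Of the regulators and anchors of the L-type channel 21 of 22 were tested (median -0.00). Jph2, which ties the sarcoplasmic reticulum to the T-tubules, was at 593 ± 47.7 and 594 ± 85.0 CPM, and the giant scaffold gene Ahnak was at 518 ± 74.1 and 505 ± 54.5. Prkar1a, a regulatory subunit of protein kinase A, had a mean of 452 ± 43.1 against 381 ± 16.2 CPM without overlap (log2 fold change 0.25, edgeR adjusted p = 0.399). Rrad, whose protein restrains the L-type channel and which was picked after its values were seen, had 162, 162, 182 and 198 CPM for HVCN1 null hearts 1 to 4, while WT hearts 5 to 8 had 211, 207, 245 and 242. Its groups did not overlap either, and its log2 fold change was -0.36 (SE 0.11, edgeR adjusted p = 0.183).

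The genes whose log2 CPM varied most like each member over the 8 hearts are given by Pearson's r, as a description over hearts that differ in their atrial content, a variation that enters these values. Cacna2d2 was nearest to Erbb4 (r = 0.989), the neuregulin receptor gene, then to Adipoq (0.974), the adiponectin gene, and Pck1 (0.965). Cacna2d1 was nearest to Crbn (0.991), Kat2b and Aldh6a1, and Cacnb2 to Nek9 (0.978), Dlg1 and Ddah1. Genes near Cacna1c were Kdm4b (0.964) and Ggnbp2, and Cacna1d was nearest to Zfp248 (0.984), Rcn1 and Cd44. Cacna1g was nearest to Lmo4 (0.969), Ccdc9 and Mageh1, and Cacna1h to Slc22a21 (0.960), Fam69a and Gm10033. Hcn2 was nearest to Arhgap9 (0.985), Scgb1c1 (0.973) and Bcat2 (0.945), and Hcn4 to Rpap2 (0.979), Nlrp10 and Usp46. The genotype difference also enters r for Hcn2. With each group mean subtracted, r was 0.983 for Arhgap9, 0.909 for Scgb1c1 and 0.807 for Bcat2. All genes named here were picked as the highest r among the genes compared over 8 hearts, and such a choice yields high r by itself.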

How the data were processed

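Poly-A RNA from 8 hearts was sequenced by the authors as paired reads of 50 bases, aligned with STAR and counted on genes with featureCounts, per the submitters' processing notes on mm10 (GRCm38). The study's text names a human build, while the gene identifiers are those of mouse. The deposited table holds raw counts, 1 column per heart, with totals of 25851255 to 38874640. Symbols and positions came from GENCODE M21 on GRCm38, which matched 38872 of 39056 identifiers. CPM values with TMM-scaled library sizes, filterByExpr (14796 genes kept) and the quasi-likelihood test were run in edgeR 4.0.16 (R 4.3.3), with a Benjamini-Hochberg adjusted p under 0.05 as the threshold and 95% intervals from the standard errors. The alternatives were 2 scalings, 2 filters, 3 other tests (edgeR's likelihood ratio test, DESeq2 1.42.0, voom of limma 3.58.1), an atrial covariate, each heart left out, an adjusted p under 0.1, the longest transcript as length, and 3 sets of hearts chosen after seeing the data. The atrial score was made from the 8 atrial markers.

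The members and lists were chosen with earlier results of these data known. Named singly were the members, the called genes and the 3 most abundant of each pathway list, Hvcn1, the 3 genes of mean CPM at least 1 most like each member (Pearson's r on log2 CPM, prior count 2), atrial, node and other markers where a result turned on them, and genes said to be picked later. A few genes that this rule names are not reported here, though counts over lists and all genes include them. Filter codons were located in the longest reading frames of annotated transcripts with Python 3.11.15. Scripts were tested on simulated data. No batch is given, and the p-values measure the spread between these hearts.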

Additional observations from a re-analysis of the deposited data

Results flagged for a closer look

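In 18 groups of 4 hearts (9 genes, 2 genotypes), the distance of the highest or lowest heart to its nearest neighbour was compared with the range of the group. Chance puts about 1 in 20 groups past the 95% critical value of Dixon's ratio, and 3 of the 18 groups passed it. Cacna1c in HVCN1 null heart 3 was at 299 CPM, below the 356 to 367 of the other 3 (ratio 0.835). Cacna1d in WT heart 7 was at 8.19 CPM, above the 1.79 to 2.78 of the other WT hearts (ratio 0.845). Cacna2d2 in WT heart 7 was at 38.7 CPM, above the 2.75 to 5.92 of the other WT hearts (ratio 0.912). Heart 7 had the highest sum of atrial markers, 8812 CPM, and of adipocyte markers, 26.9 CPM, and their part in these values was not tested.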

How the results depend on the processing

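No paired analysis was possible because neither the labels nor the study's text give a pairing of HVCN1 null and WT hearts. The members' log2 fold changes kept direction and side of the threshold in 145 of 171 cases. The exceptions were 25 turns of direction, none past the threshold, and Hcn2 under DESeq2 (0.41, called), which makes 1 member called there. The signs of Cacna1h, Cacna1c, Hcn2 and Hcn4 held in all 19 alternatives. For Hcn2, whose groups do not overlap, the direction in sets with hearts left out was fixed beforehand. Without scaling, Cacnb2 was at 0.0089, Cacna2d1 at 0.012 and the median of all genes at 0.03. With the atrial covariate Cacnb2 was at 0.013, Cacna2d1 at 0.027 and Cacna2d2 at -0.025, and voom gave 0.19 for Cacna1d. Among the hearts poor in atrial transcripts Cacna1d was at 0.75, and among the rich ones Cacna1g was at -0.018, Cacnb2 at 0.10, Cacna2d1 at 0.075 and Cacna2d2 at -0.069. With hearts 2 and 7 left out Cacna1d was at 0.57. Leaving out each heart in turn gave 0.18 to 0.40 for Cacna1c, -1.76 (without heart 2) to -0.27 (without heart 7) for Cacna1h, -0.89 to -0.35 for Hcn4, -0.27 to 0.73 for Cacna1d, -0.037 to 0.18 for Cacna1g, -0.13 to 0.043 for Cacnb2, -0.15 to 0.082 for Cacna2d1 and -0.83 to 1.65 for Cacna2d2. The turns came without heart 4 or 7 for Cacna1d, heart 6 for Cacna1g, heart 3, 6 or 8 for Cacnb2 and Cacna2d1, and heart 2, 5, 6 or 8 for Cacna2d2. The genes called over the whole table numbered 466 by DESeq2, 376 by the likelihood ratio test, 262 at an adjusted p under 0.1, 71 and 24 in the atrial-poor and atrial-rich sets, and 71 to 152 with a heart left out, where hearts 1, 3, 5, 6 and 8 each moved the count over 1.5 times (99, 103, 92, 71 and 104 without them). With the longest transcript as length, Cacna2d1 took place 2 and Hcn2 place 3 in both genotypes, and in WT hearts Cacna1g took place 6 and Hcn4 place 7. Without scaling, Cacna1h took place 4 and Cacnb2 place 5 in WT hearts. The cause of these shifts was not tested, and the smaller sets also hold fewer hearts.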

Other observations

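Among the accessory genes outside the main results, Cacna2d3, a further α2δ gene picked after its values were seen, had 1.98, 0.949, 1.24 and 3.46 CPM in the atrial-rich hearts 2, 3, 5 and 7 and 0.270 to 0.510 in hearts 1, 4, 6 and 8. Its genotype difference did not pass the test (log2 fold change -0.53, SE 0.74, edgeR adjusted p = 0.895). Pex5l, which encodes a protein known to regulate the surface level of HCN channels and was picked in the same way, had 1.05, 1.82, 1.37 and 1.24 CPM for HVCN1 null hearts 1 to 4, while WT hearts 5 to 8 had 0.632, 0.309, 1.06 and 0.371 (log2 fold change 1.19, SE 0.38, edgeR adjusted p = 0.233). HVCN1 null heart 1 and WT heart 7 were almost level, and the other hearts of each genotype lay apart. Gem, a small GTP-binding protein of the same family as Rrad and also picked after its values were seen, was at 6.98 ± 1.75 CPM in HVCN1 null and 4.55 ± 1.22 CPM in WT hearts (n = 4 each, edgeR adjusted p = 0.339).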
